A study of Homo sapiens with 12 samples.

Results

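The H3K27me3 ChIP-seq library of T24 cells given GSK-126 together with fenretinide was set against the library of T24 cells given fenretinide alone. These were 2 of the 12 samples of the series, picked by their labels, and 2 of the 4 H3K27me3 libraries analysed here. T24 is an established human bladder cancer cell line. The combination cells received 5 µM GSK-126 and 5 µM fenretinide for 72 h, and the fenretinide cells received 5 µM fenretinide for 72 h, so the pair differed by GSK-126 only. A parallel pair differed by the same compound without the retinoid, and consisted of cells given 5 µM GSK-126 and cells given DMSO vehicle, both for 72 h. Each condition had 1 library, so no value has a replicate check and every interval below covers counting error only. The 4 input and 4 RNA samples of the series were not analysed here, so the cell type was not checked against RNA of its markers.

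H3K27me3 is a histone mark of repressed chromatin. The enzyme EZH2 places it within a Polycomb complex that also needs the subunit EED, and CBX proteins of another Polycomb complex bind the mark. GSK-126 is an inhibitor of EZH2 that competes with its methyl donor, and fenretinide is a synthetic retinoid known for raising oxidative stress and ceramide and for inducing cell death in cancer cells.

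The libraries held 15812933 fragments (combination) and 18928836 fragments (fenretinide) in 273664 intervals that cover 1296 Mb, or 12.2 and 14.6 fragments per kb. The GSK-126 and vehicle libraries held 16156194 and 17133107 fragments. A ratio is the share of the fragments of the combination library in an interval divided by the share in the fenretinide library, with a 95% exact Clopper-Pearson interval in parentheses. Features with a ratio of 2 or more were called higher and those with 0.5 or less were called lower, in each case only where that interval excluded 1, and "rose" and "fell" are used only of called features, with the ratio as the value given. An interval needed 20 fragments in the pair to be tested and a gene 50. The labels name no spike-in, so a ratio shows where the fragments lay and not how much of the mark the cells held. A background scaling, which sets the sparsest 25% of intervals equal between libraries, moved all log2 ratios by -0.68, while DESeq2 and TMM factors moved them by -0.01 and -0.04. Directions below are relative to library share unless stated.

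The combination library held a smaller share of its fragments in intervals where the mark is dense, and a larger share in sparse ones, than the fenretinide library. Of 163891 tested intervals, 30524 were higher (18.6%) and 19862 were lower (12.1%) in the combination library, with a median log2 ratio of -0.03. The intervals called higher held 19.4% of the combination fragments and 6.16% of the fenretinide fragments. Those called lower held 3.90% of the combination fragments and 9.46% of the fenretinide fragments. With background scaling 11887 intervals were higher and 60327 lower, so the order of the split depended on the scale.

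Density in the vehicle library, which neither side of the ratio uses, ordered the intervals. In the decile of intervals with the lowest vehicle density, the median combination density was 9.49 fragments per kb against 3.49 in the fenretinide library. The median log2 ratio there was 1.73, and 77.8% of intervals were higher. In the decile with the highest vehicle density the medians were 12.7 (combination) and 24.02 fragments per kb (fenretinide), the median log2 ratio was -0.61, and 25.1% of intervals were lower. Across the deciles the combination medians stayed between 7.75 and 12.7 fragments per kb while the fenretinide medians ran from 3.49 to 24.02. This contrast is of intervals sorted on vehicle density, and which library had the narrower spread of density depended on the intervals used. Over all intervals of at least 3 kb the 90th percentile of density was 3.65 times the 10th (combination) and 4.89 times (fenretinide). Over those with a vehicle peak it was 4.04 times (combination) and 3.21 times (fenretinide). With background scaling the median log2 ratios at these ends were 1.05 and -1.29, and deciles 3 and 4, at 0.61 and 0.26 by library share, were at -0.07 and -0.42.

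Intervals exist where any of the 4 libraries had a peak, so a sparse interval of the vehicle library was in most cases listed because another library had a peak there. Among intervals that hold a vehicle peak, the lowest decile had a median log2 ratio of 0.89, with 10.1 (combination) and 6.98 fragments per kb (fenretinide), and the highest decile had -0.61, with 14.1 (combination) and 26.5 fragments per kb (fenretinide). In that subset the median log2 ratio was above 0 in the 2 sparsest deciles only, at 0.89 and 0.26.

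**Figure D1:**
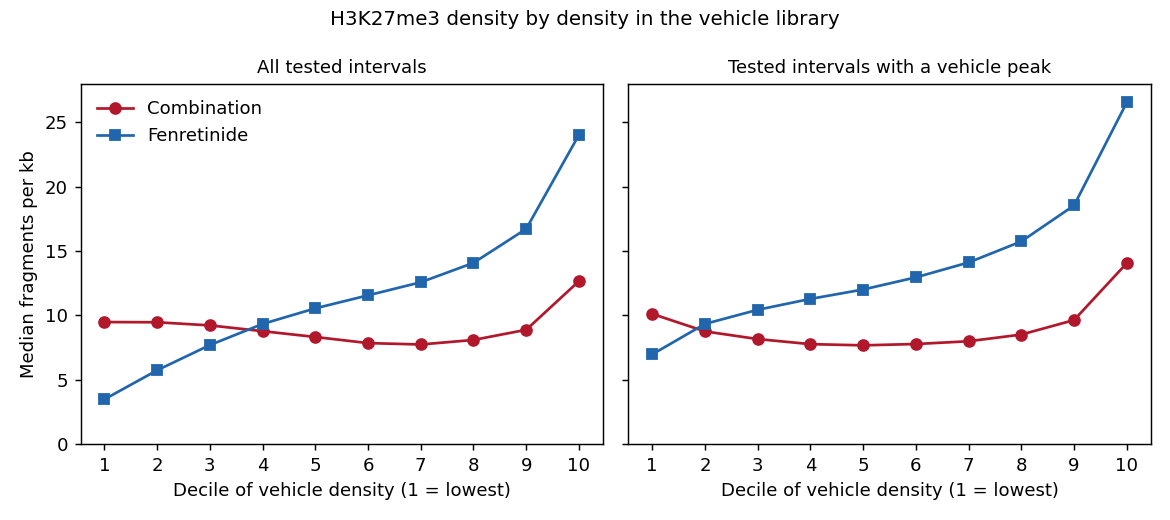
Median fragments per kb (y axis) of tested intervals in deciles of vehicle density (x axis, 1 = lowest), for the combination (circles) and fenretinide (squares) libraries, over all tested intervals (left) and those with a vehicle peak (right). The combination line is the flatter one, with medians from 7.75 to 12.7 in the left panel, while the fenretinide line climbs from 3.49 to 24.02.

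Distance from genes ordered the intervals as well. Intervals whose nearest peak centre lay within 2 kb of a transcription start site (TSS) had a median log2 ratio of -0.50, with 522 higher and 1380 lower of 6938. Those at 2 to 10 kb had -0.52, with 1719 higher and 3931 lower of 16305. Those more than 200 kb away had 0.59, with 11817 higher and 1484 lower of 36951, and they held 18.85% of the combination fragments and 13.2% of the fenretinide fragments. With background scaling the far group had a median of -0.09 and the group within 2 kb -1.18, so the far median changed sign while the order was kept.

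**Figure D2:**
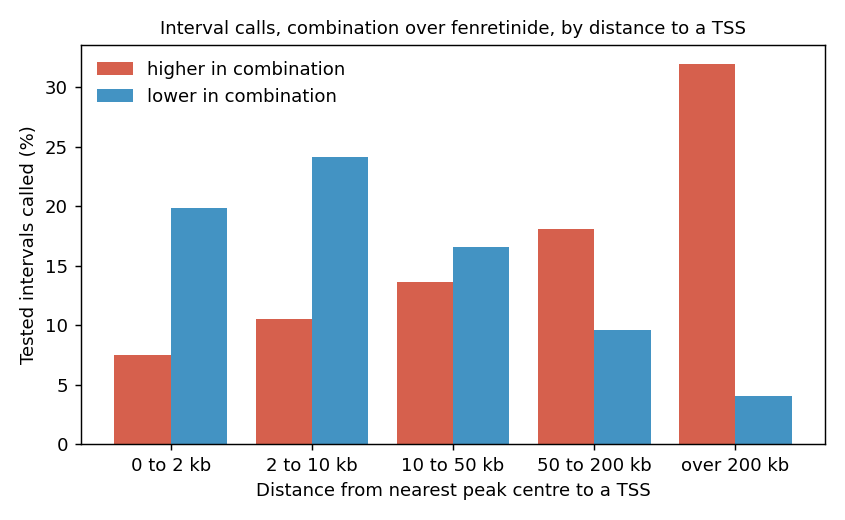
Percent of tested intervals called higher (left bar of each pair) or lower (right bar) in the combination library over the fenretinide library, by distance from the nearest peak centre to a TSS. Higher calls climb from 7.52% within 2 kb to 32.0% beyond 200 kb, and lower calls peak at 24.1% between 2 and 10 kb.

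Far intervals were also sparser in the vehicle library, so the distances were compared within quintiles of vehicle density. In the densest quintile the median log2 ratio was -0.75 within 10 kb of a TSS, -0.57 between 10 and 200 kb, and -0.20 beyond 200 kb. In the middle quintile these medians were -0.34, -0.19 and 0.06. In the sparsest quintile the order was the reverse, with 1.603, 1.39 and 1.31. The difference between near and far intervals thus held within the 4 denser quintiles and not in the sparsest one.

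By the annotation class of their peaks, intervals at promoters kept 6.76% of the combination fragments against 8.40% of the fenretinide fragments, a share ratio of 0.804. Exon and transcript-end intervals had share ratios of 0.816 and 0.822, introns 0.961 and intergenic intervals 1.08. Of 3330 promoter intervals, 232 were higher and 599 lower. Of 98368 intergenic intervals, 20356 were higher and 10570 lower, and with background scaling 7303 were higher and 32516 lower.

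Chromosomes differed in the same sense. Chromosome 22 had the lowest median log2 ratio, -0.68, with 148 higher and 394 lower of 1309 intervals, and chromosome 17 had -0.51. Chromosome 21 had 0.69, with 755 higher and 154 lower of 2106, and chromosome X had 0.39. With background scaling these medians were -1.35, -1.19, 0.01 and -0.29. Chromosome 19 was split, with 458 higher and 534 lower of 1843 intervals, and its genes are taken up below.

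Sequence outside the assembled chromosomes held a larger share of the combination library. Unplaced and random contigs held 1.19% of the combination fragments and 0.452% of the fenretinide fragments. An interval of the unplaced contig KI270438v1, from 108679 to 112461, held 35785 combination and 4711 fenretinide fragments, a ratio of 9.09 (8.82 to 9.38). The GSK-126 library had 44596 fragments there and the vehicle library 1542. Both libraries with GSK-126 were thus above both libraries without it. Such contigs are rich in repeats, and the sources used here do not give how reads with several matches were placed.

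Peaks were called by the authors in each library separately, and 274393 were listed for the combination and 234815 for fenretinide, covering 829 and 746 Mb. Of the combination peaks, 66.1% overlapped a fenretinide peak by at least 1 bp, and 72.6% of the fenretinide peaks overlapped a combination peak. The 92904 combination peaks without a partner had a median width of 938 bp, against 2146 bp for those with one. The 64427 fenretinide peaks without a partner had 797 bp, against 2026 bp. At promoters, 23.1% of combination peaks and 32.1% of fenretinide peaks lacked a partner, while in intergenic sequence the shares were 35.0% and 25.6%. Of the combination peaks without a fenretinide partner, 47.0% overlapped a GSK-126 peak, 16.5% a vehicle peak and 44.0% neither. Over all combination peaks, 63.8% overlapped a GSK-126 peak and 61.1% a vehicle peak. Of the fenretinide peaks without a combination partner, 19.6% overlapped a GSK-126 peak, 53.5% a vehicle peak and 38.1% neither. Over all fenretinide peaks, 61.6% overlapped a GSK-126 peak and 71.5% a vehicle peak. All these shares of peaks without a partner were thus below the shares over all peaks of the same library. The share of peak length more than 200 kb from a TSS was 22.3% in the combination list and 14.05% in the fenretinide list. Peak lists of different lengths depend on depth and on the calling threshold, so the fragment counts above carry the comparison.

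Genes were given the intervals under peaks centred within 10 kb of their TSS. By this rule the mark's share fell near more genes than it rose. Of 14047 tested genes, 1320 were higher (9.4%), 2662 were lower (19%) and 10065 were neither, and the log2 ratio had a median of -0.49 over genes, which is a ratio of 0.713. The quartiles were -0.88 and 0.03. With background scaling 671 genes were higher and 8388 lower. Without the distance limit 2705 were higher and 2187 lower. Over RefSeq gene spans with 5 kb on either side 5433 were higher and 4545 lower, so the order depended on the gene rule. Genes followed the density of the vehicle library: in the lowest decile of genes 1011 of 1405 were higher and 8 lower, and in the highest decile 1 was higher and 372 lower. Genes were listed through combination or fenretinide peaks, so a sparse decile can hold genes listed because the combination library was high. Of the 1320 genes called higher, 732 had an interval with a vehicle peak.

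Among genes with at least 100 fragments in the pair, ranked by the counting bound nearest to 1, the strongest fall was near CENPV, a centromere protein gene, with 16 combination and 102 fenretinide fragments, a ratio of 0.188 (0.103 to 0.320). Its interval is intergenic, on chromosome 17 from 16355807 to 16363509 (GRCh38). The GSK-126 library had 18 fragments there and the vehicle library 82, so both libraries with the inhibitor were low. CECR5-AS1, an antisense RNA gene now called HDHD5-AS1, had 19 combination and 109 fenretinide fragments, a ratio of 0.209 (0.121 to 0.342), on chromosome 22 from 17165679 to 17169087. RUFY1, an endosomal trafficking gene, had 18 and 103 fragments in the same order, a ratio of 0.209 (0.119 to 0.347), but without the distance limit it was at 0.719 and not called, and CECR5-AS1 was then at 0.379. GMFG, a regulator of actin branching, had 18 combination and 101 fenretinide fragments over an intron, a ratio of 0.213 (0.122 to 0.355), and 0.358 over its gene span.

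TMEM38B, an ion channel gene of the endoplasmic reticulum, had 22 combination and 121 fenretinide fragments, a ratio of 0.218 (0.132 to 0.345), upstream of the gene on chromosome 9 from 105688339 to 105692977. Over its whole RefSeq span with 5 kb on either side the direction was opposite, with 494 combination and 252 fenretinide fragments and a ratio of 2.35. DSTYK, a kinase gene, had a ratio of 0.219, SULT2B1, a sterol sulfotransferase gene, 0.224, and GLIPR2 0.236. Over their gene spans DSTYK and GLIPR2 were at 0.604 and 0.596, not called, and SULT2B1 at 0.401. GABBR1, a GABA receptor subunit gene, had 55 combination and 247 fenretinide fragments, a ratio of 0.267 (0.195 to 0.358). Among these 10 falls the one with the most fragments was at SAMD11, in an interval with exons on chromosome 1 from 910038 to 944188, with 191 combination and 738 fenretinide fragments, a ratio of 0.310 (0.263 to 0.364). The SAMD11 interval had 244 fragments in the GSK-126 library and 1352 in the vehicle library, and it is shared with 2 uncharacterised genes.

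The strongest rises by the same ranking were mostly near zinc-finger genes, whose products bind DNA and in many cases repress transposable elements. ZNF7 had 454 combination and 23 fenretinide fragments, a ratio of 23.6 (15.6 to 37.7). ZNF891 had 1003 combination and 65 fenretinide fragments, a ratio of 18.5 (14.4 to 24.1), in an interval with intronic peaks on chromosome 12 from 133082139 to 133129440. ZNF616 had 584 and 35 fragments in that order, a ratio of 19.97 (14.2 to 29.0), on chromosome 19 from 52142342 to 52168595. At ZNF7, ZNF891 and ZNF616 the GSK-126 library was higher still, with 727, 1474 and 731 fragments, and the vehicle library was low, with 8, 27 and 29.

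ZNF678 had the most fragments of the set, 1444 in the combination library against 112 in the fenretinide library, a ratio of 15.4 (12.7 to 18.88). ZNF134 had 152 combination and 6 fenretinide fragments, a ratio of 30.3 (13.6 to 83.9), and ZNF614 had 391 and 25, a ratio of 18.7. ZNF124 was at 16.8 and ZFP30, a zinc-finger gene with 1212 combination and 102 fenretinide fragments, at 14.2 (11.6 to 17.6). The other rises of the 10 were the pseudogene TYRO3P, with 114 and 4 fragments, and RNA5S9, a 5S ribosomal RNA copy, with 135 and 6. TYRO3P and RNA5S9 have near-identical copies, so their counts are uncertain. The size of some rises depended on the intervals used: ZNF678 was at 7.99 with all 4 peak lists, 5.47 over its gene span and 2.77 without the distance limit, and ZFP30 at 7.49 over its span. None of the 10 had an interval with a vehicle peak, so their intervals are in the table through peaks of other libraries. Each of the 10 falls had one.

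**Figure D3:**
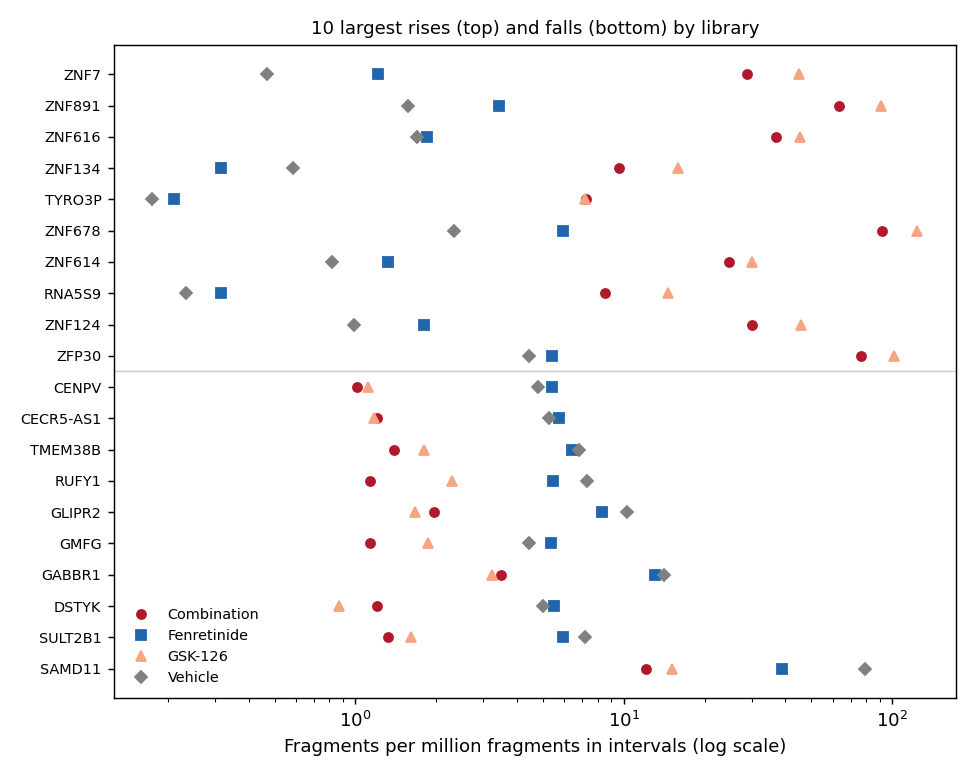
Fragments as a share of the library, scaled to the same total (x axis, log scale), in each of the 4 libraries for the genes with the 10 largest rises (top) and the 10 largest falls (bottom). In each rise the combination (circles) and GSK-126 (triangles) libraries lie to the right of fenretinide (squares) and vehicle (diamonds), and in each fall they lie to the left.

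The promoters of these genes are shown because in most of them the interval that changed stopped short of the promoter. They run from 250 bases before to 50 bases after the start in RefSeq (GRCh38.p14), 5′ to 3′ on the strand of the gene, with CG dinucleotides in capitals. The first 3 lie near falls and the last 3 near rises.

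TMEM38B (chr9:105694291-105694590, plus strand): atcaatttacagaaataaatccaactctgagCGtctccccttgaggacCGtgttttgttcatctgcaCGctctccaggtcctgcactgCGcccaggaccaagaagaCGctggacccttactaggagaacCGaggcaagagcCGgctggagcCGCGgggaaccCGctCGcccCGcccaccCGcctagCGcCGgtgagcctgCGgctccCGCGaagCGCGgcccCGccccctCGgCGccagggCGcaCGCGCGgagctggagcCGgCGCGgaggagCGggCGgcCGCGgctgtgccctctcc
GLIPR2 (chr9:36136286-36136585, plus strand): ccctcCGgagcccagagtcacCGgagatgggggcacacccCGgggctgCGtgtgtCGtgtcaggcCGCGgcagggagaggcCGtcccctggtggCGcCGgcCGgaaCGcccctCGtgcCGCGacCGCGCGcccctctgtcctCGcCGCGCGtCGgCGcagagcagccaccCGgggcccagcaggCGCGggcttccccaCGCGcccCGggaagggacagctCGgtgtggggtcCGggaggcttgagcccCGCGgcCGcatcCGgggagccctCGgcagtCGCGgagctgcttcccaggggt
GMFG (chr19:39335994-39336293, minus strand): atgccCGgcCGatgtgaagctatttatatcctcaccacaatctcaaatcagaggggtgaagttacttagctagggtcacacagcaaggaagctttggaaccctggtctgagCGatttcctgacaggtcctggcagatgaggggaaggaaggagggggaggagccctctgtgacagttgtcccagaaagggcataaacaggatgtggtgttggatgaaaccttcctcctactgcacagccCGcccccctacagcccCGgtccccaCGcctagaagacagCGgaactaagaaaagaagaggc
ZNF891 (chr12:133130225-133130524, minus strand): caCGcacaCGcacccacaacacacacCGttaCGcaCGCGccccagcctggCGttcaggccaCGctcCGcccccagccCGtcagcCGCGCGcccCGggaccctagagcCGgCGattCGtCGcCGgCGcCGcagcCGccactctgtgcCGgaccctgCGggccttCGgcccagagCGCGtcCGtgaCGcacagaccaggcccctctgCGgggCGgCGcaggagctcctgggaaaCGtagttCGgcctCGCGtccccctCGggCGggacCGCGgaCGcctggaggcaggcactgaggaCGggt
ZNF616 (chr19:52139889-52140188, minus strand): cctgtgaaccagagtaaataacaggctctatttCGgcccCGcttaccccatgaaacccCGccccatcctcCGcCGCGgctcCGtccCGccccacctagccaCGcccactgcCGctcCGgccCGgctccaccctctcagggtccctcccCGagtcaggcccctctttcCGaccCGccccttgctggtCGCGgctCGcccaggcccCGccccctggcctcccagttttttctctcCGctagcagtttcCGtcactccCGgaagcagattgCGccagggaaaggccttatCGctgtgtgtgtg
ZNF134 (chr19:57613992-57614291, plus strand): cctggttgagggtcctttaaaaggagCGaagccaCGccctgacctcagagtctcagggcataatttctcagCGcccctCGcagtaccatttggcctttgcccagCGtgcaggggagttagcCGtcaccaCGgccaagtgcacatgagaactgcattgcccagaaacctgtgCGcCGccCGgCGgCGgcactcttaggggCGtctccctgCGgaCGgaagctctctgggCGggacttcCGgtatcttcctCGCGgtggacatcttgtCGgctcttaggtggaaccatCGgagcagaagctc

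The CG dinucleotide, which reads the same on both strands, occurred 34 times in the TMEM38B promoter, 39 times in that of GLIPR2 and 7 times in that of GMFG. It occurred 42 times for ZNF891, 24 times for ZNF616 and 21 times for ZNF134, against a median of 14 over 27195 RefSeq promoters of this length, of which 95.9% hold at least 1. Of the 6, only the GMFG promoter lay within an interval, and the interval with most of the GMFG fragments began 835 bp downstream of it. The ZNF891 interval began 785 bp downstream of the promoter and the ZNF134 interval 1099 bp downstream, while the GLIPR2 interval ended 262 bp upstream and the TMEM38B interval 1314 bp upstream. The ZNF616 interval lay 2154 bp upstream.

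Promoters poor in CG were more often inside an interval, 46.9% of those with at most 2 CG dinucleotides against 17.5% of those with 28 or more. The intervals over them had median log2 ratios of -0.28 and -0.49. Of those tested, 8.27% of the CG-poor and 17.2% of the CG-rich promoters lay in an interval called lower, and 9.67% and 9.18% in one called higher. Promoters with 3 to 13 and with 14 to 27 CG dinucleotides had median log2 ratios of -0.51 and -0.40. In these groups 16.2% and 14.7% lay in an interval called lower, so the values did not run one way with the CG count. Among tested genes whose main interval lay within 50 kb of a RefSeq promoter, the interval covered the promoter in 38.7% of 7532 genes, 31.6% of 686 genes called higher and 24.8% of 1550 called lower. It lay downstream of the promoter in 42.5% of 179 zinc-finger genes called higher, against 23.3% of all such genes and 30.8% of the other genes called higher.

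Of 333 measured genes with symbols starting with ZNF, 221 rose, 25 fell and 87 did neither, against 9.4% higher and 19% lower of all genes. Their median log2 ratio was 1.71 against -0.49 for all genes. With background scaling 170 rose and 58 fell, with a median of 1.03. On intervals with a vehicle peak 118 of 234 ZNF genes rose and 28 fell, with a median of 1.02. On chromosome 19 the 187 ZNF genes had 161 rises and 6 falls, and a median of 2.34, while the 715 other genes of that chromosome had 65 rises and 228 falls, and a median of -0.77. The 146 ZNF genes elsewhere had 60 rises and 19 falls and a median of 0.43. Neighbouring genes share intervals, and 297 distinct interval sets of ZNF genes had 187 rises and 25 falls.

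ZNF genes were sparse in the vehicle library, with a median of 5.14 fragments per kb against 14.7 for all genes. The deciles below hold genes listed through combination or fenretinide peaks, so the limit given above for sparse deciles applies to them. Within the lowest vehicle decile of genes, 178 of 183 ZNF genes rose (median log2 2.62), against 833 of 1222 other genes (1.36). In the next decile 30 of 43 ZNF genes rose (1.51), against 181 of 1362 others (0.12). In the third decile 12 of 25 rose and 6 fell (0.94), while others had 47 rises and 195 falls of 1379 (-0.32). In the denser deciles 1 ZNF gene rose, and the other falls of ZNF genes lay there. ZNF423, a large factor of neural and fat cell development, fell with 962 combination and 2967 fenretinide fragments, a ratio of 0.388 (0.361 to 0.418), and ZNF335 fell to 0.387 (0.346 to 0.431).

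Clustered protocadherins are neuronal adhesion genes that lie in tandem on chromosome 5. Of 44 measured, 23 rose (52.3%, against 9.4% of all genes) and none fell, with a median log2 ratio of 1.17. PCDHB14 and PCDHB15 share an interval, which also spans SLC25A2 and TAF7, with 2423 combination and 559 fenretinide fragments, a ratio of 5.19 (4.73 to 5.70), and the GSK-126 and vehicle libraries had 3266 and 441. PCDHGA12 had 145 combination and 26 fenretinide fragments, a ratio of 6.68, whereas PCDHB1, at one end of the beta cluster, was at 0.752 and PCDHAC2 at 0.774, neither called. The 44 genes rest on 20 interval sets, so they are not independent. All 44 were above the median of genes in the same vehicle decile, by a median of 1.02 on the log2 scale. With background scaling the median was 0.49, with 3 rises and 2 falls.

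From each list up to 2 rises and 2 falls were named by the ranking used above, and the further members given were chosen after their values were seen. Polycomb subunit genes had a median of -1.14, with 9 falls, 1 rise and 5 neither of 15, where 19% of all genes fell. Over gene spans 24 of them had 6 falls and 6 rises and a median of -0.50, and without the distance limit the median was -0.76. CBX2, a reader of the mark, had 90 combination and 304 fenretinide fragments, a ratio of 0.354 (0.277 to 0.450), with 76 in the GSK-126 and 400 in the vehicle library. KDM6B, a demethylase that removes the mark, fell to 0.356, EED, the partner of EZH2, to 0.377, and CBX8 to 0.434. SCMH1, a Polycomb-associated gene, rose with 162 combination and 29 fenretinide fragments, a ratio of 6.69 (4.48 to 10.3), in an intron, and 4.22 over its span. Of the 15, 12 lay below the median of genes in the same vehicle decile. EZH2 had no combination or fenretinide peak annotated to it within 10 kb of its TSS. Over its gene span EZH2 had 54 combination and 133 fenretinide fragments, a ratio of 0.486 (0.347 to 0.672).

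HOX genes, which set position along the body axis, had 2 falls of 9 measured, HOXB13 at 0.285 and HOXD10 at 0.409, and 7 neither, with a median of -0.79. That is 22.2%, near the 19% of all genes. Of 39 HOX genes written in the list, 28 had no interval by this rule. HOXD11 had 24 combination and 49 fenretinide fragments, a ratio of 0.586 (0.344 to 0.974), and was not called. Of 54 WNT, BMP and FGF ligands and antagonists, 18 fell (33.3%, against 19% of all genes), 1 rose and 35 did neither, with a median of -0.80. Without the distance limit 9 of 71 of these genes fell and 6 rose, with a median of -0.38. Over gene spans 16 of 61 fell and 1 rose, with a median of -0.62. BMP7, a bone morphogenetic protein, had 1435 combination and 4012 fenretinide fragments, a ratio of 0.428 (0.403 to 0.455). FGF21, a metabolic hormone, fell to 0.367, NODAL, a TGF-beta family morphogen, to 0.412, and WNT5A to 0.435, while GREM1, a BMP antagonist, rose to 2.02 with 54 combination and 32 fenretinide fragments.

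Developmental transcription factors went both ways, with 8 rises and 9 falls of 96 and a median of -0.41. That is 8.33% rises, near the 9.4% of all genes, and 9.38% falls, against 19% of all genes. PAX2 and PAX7, factors of kidney and muscle development, fell to 0.461 (0.418 to 0.509) and 0.476 (0.435 to 0.520), but were at 0.535 and 0.544 over their gene spans, where neither is called. SOX3, a neural progenitor factor, had 396 combination and 95 fenretinide fragments, a ratio of 4.99 (3.98 to 6.31), and 2.85 without the distance limit. SOX11 rose to 3.85 (3.56 to 4.17) and ZIC1 and ZIC4, which share an interval, to 3.24. Neuronal channel and synapse genes were similarly split, with 9 rises (12.5%) and 11 falls (15.3%) of 72, near the shares of all genes, and a median of -0.44. CACNA1H, a calcium channel gene, fell to 0.422 and CNTN4, a neuronal adhesion gene, rose to 3.57 but was at 1.40 over its gene span, where it is not called. GRM6, a glutamate receptor gene, shares an interval with 4 zinc-finger genes, and that interval had 11087 combination and 4059 fenretinide fragments, a ratio of 3.27 (3.15 to 3.39).

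Retinoid pathway genes were examined because both libraries had received a retinoid. Of 25 measured, 6 fell (24%, near the 19% of all genes), 1 rose and 18 did neither, with a median of -0.59. RARG, a retinoic acid receptor gene, had 79 combination and 283 fenretinide fragments, a ratio of 0.334 (0.257 to 0.430), and 69 and 344 in the GSK-126 and vehicle libraries. The retinol dehydrogenase genes RDH13 and RDH12 went opposite ways, at 0.322 and 2.64, but RDH12 was at 0.943 over its gene span. RLBP1 and LRAT, genes of the visual retinoid cycle, fell to 0.389 and 0.459, and STRA6, which takes retinol into cells, fell to 0.473 (0.253 to 0.847) on 17 combination and 43 fenretinide fragments. RARB, a retinoic acid receptor gene that retinoids induce, had 29 combination and 36 fenretinide fragments, a ratio of 0.964 (0.570 to 1.62). CYP26A1, whose product breaks down retinoic acid, had 39 and 60, a ratio of 0.778 (0.506 to 1.18). Neither RARB nor CYP26A1 was called, and both intervals of error include 1.

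Of 17 genes of the unfolded protein response and apoptosis, 7 fell (41.2%, against 19% of all genes), none rose and 10 did neither, with a median of -0.86. Without the distance limit 7 of 33 rose and 6 fell, with a median of -0.40. Over gene spans 5 of 25 rose and 8 fell. BIK, a pro-apoptotic gene, had 9 combination and 89 fenretinide fragments, a ratio of 0.121 (0.0536 to 0.240), with 15 in the GSK-126 and 108 in the vehicle library. TNFSF10, the death ligand TRAIL, fell to 0.322, CREB3L3, a membrane-bound transcription factor gene, to 0.344, ATF3, a stress factor gene, to 0.362, and BMF to 0.374. Of 19 ceramide and oxidative stress genes, 4 fell (21.1%, near the 19% of all genes), none rose and 15 did neither, with a median of -0.62. Without the distance limit 7 of 31 of these genes rose and 4 fell, and over gene spans 6 of 27 rose and 2 fell. ACER1, a ceramidase gene, fell to 0.381 (0.325 to 0.446) but was at 0.698 over its gene span, SMPD1, a sphingomyelinase gene, fell to 0.403, CERS4, a ceramide synthase gene, to 0.453, and DEGS1, the desaturase that completes ceramide synthesis, to 0.462.

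The 15 measured urothelial and luminal markers had 5 falls (33.3%, against 19% of all genes) and no rise, with a median of -0.76. Without the distance limit 3 of 23 of these markers fell and 1 rose, with a median of -0.52. Over gene spans 5 of 20 fell and none rose, with a median of -0.66. UPK1A, a uroplakin of the urothelial surface, had 37 combination and 146 fenretinide fragments, a ratio of 0.303 (0.206 to 0.438), and GRHL3, an epithelial differentiation factor, fell to 0.331 but was at 0.745 without the distance limit and not called. UPK3A fell to 0.445, while UPK1B was at 1.29 and GATA3, a luminal transcription factor, at 1.02 (0.729 to 1.42), neither called. FGFR3, a receptor tyrosine kinase gene often altered in bladder cancer, was at 0.690 (0.499 to 0.947) and not called. Of 22 basal and squamous markers, none fell and 1 rose, SERPINB3, at 2.56 on 47 combination and 22 fenretinide fragments, and the median of -0.45 lay close to the -0.49 of all genes. KRT5 and the KRT6 genes share an interval at 0.709. Of 21 other keratins, none fell and KRT25, a hair follicle keratin, rose to 3.89 on 130 combination and 40 fenretinide fragments. These 21 genes rest on 9 interval sets, so most share their fragments.

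The 50 measured genes of the blood lineages had 14 falls (28%, against 19% of all genes) and 2 rises, with a median of -0.75. ELANE, the neutrophil elastase gene, fell to 0.285 and CD52 to 0.297, while the monocyte gene CD14 rose to 3.26 and KLF1, a factor of red cell development, was at 3.15, also a rise. Neither call held throughout: CD14 was at 1.41 without the distance limit, and KLF1 at 1.80 over its gene span and with all 4 peak lists and at 1.97 with background scaling. Of 36 antigen presentation and interferon genes, 7 fell (19.4%, the share of all genes being 19%), 1 rose and 28 did neither, with a median of -0.60. CIITA, the master regulator of MHC class II, had 1144 combination and 2834 fenretinide fragments, a ratio of 0.483 (0.451 to 0.518), the chemokine gene CXCL9 fell to 0.342, and the stress ligand gene RAET1G rose to 2.11 but was at 0.918 over its gene span. The 15 measured genes that restrain the cell cycle or tumours had 5 falls (33.3%, against 19% of all genes) and no rise, with a median of -0.87. Without the distance limit 5 of 28 rose and 3 fell, and over gene spans 4 of 22 rose and 7 fell. Among the 5 falls were the imprinted gene DLK1 at 0.465 and the WNT inhibitor SFRP5 at 0.472. Without the limit DLK1 and SFRP5 were at 0.575 and 0.612 and not called. Mesenchymal genes had 3 falls (18.8%, near the 19% of all genes) and 1 rise of 16 and a median of -0.57. SNAI3 fell to 0.392, and CDH11 rose to 2.01, a call lost under each other scaling. Of 5 housekeeping genes with enough fragments, of 35 written, 2 fell (40%, against 19% of all genes) and the median was -0.89. Of 367 olfactory receptor genes, 46 rose (12.5%, against 9.4% of all genes) and 10 fell (2.72%, against 19%), with a median of -0.16. OR2L5 and OR2M7 were at 5.50 and 5.08. CDKN1A, CDKN2A and KLF4 had no combination or fenretinide peak annotated to them within 10 kb of the TSS. Over its gene span KLF4 had 10 combination and 24 fenretinide fragments. WNT4 had 7 combination and 19 fenretinide fragments, too few to test.

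**Figure D4:**
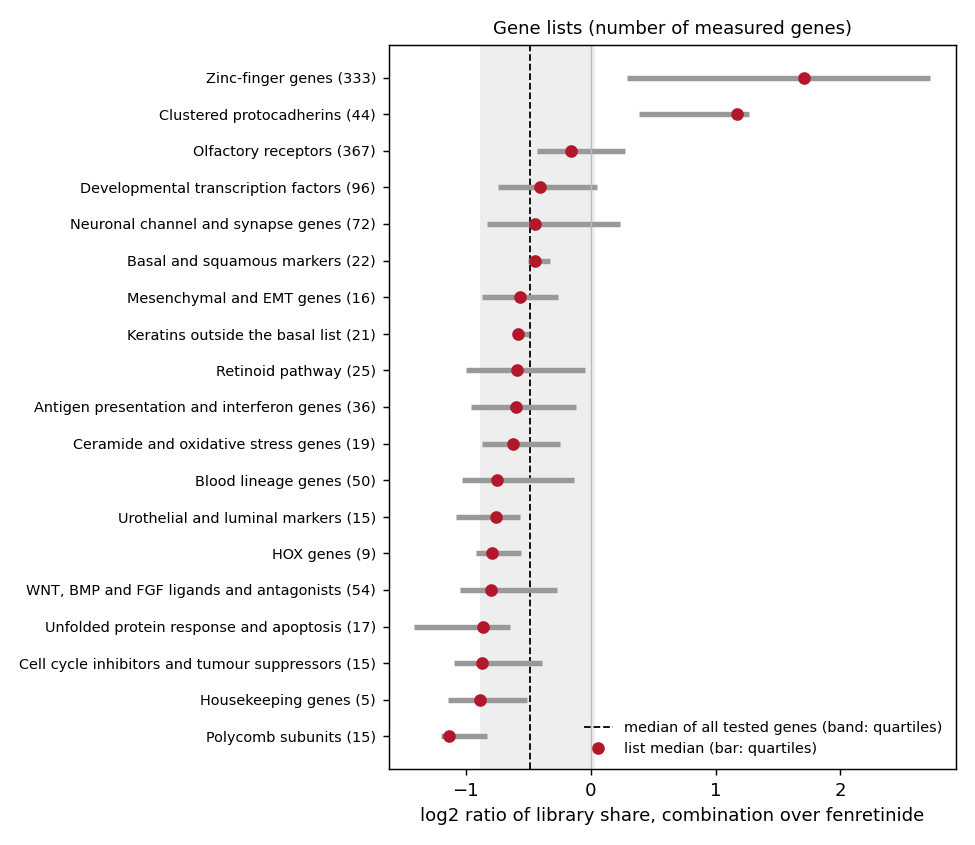
Median log2 ratio of library share (points) with quartiles (bars) of the measured genes of each list, combination over fenretinide, beside the median (dashed line) and quartiles (grey band) of all tested genes. Zinc-finger genes (1.71) and clustered protocadherins (1.17) lie right of 0, and Polycomb subunits lie at -1.14 (-0.50 over gene spans).

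The inhibitor was then compared with and without fenretinide. Combination over fenretinide and GSK-126 over vehicle share no library. Over 13742 genes tested in both, 1275 rose and 2577 fell in the combination library over the fenretinide library, and 1546 rose and 5639 fell in the GSK-126 library over the vehicle library. The 1205 genes that rose in both made up 94.5% of the rises with fenretinide and 77.9% of those without it. The 2454 that fell in both made up 95.2% and 43.5% of the falls. No gene rose in one pair and fell in the other. Across genes, which are not independent and share intervals, Pearson's r was 0.938 and Spearman's rho 0.901.

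The ratios were nearer to 1 with fenretinide for 82.4% of genes. The median gene had -0.49 with fenretinide and -0.78 without. Genes that rose in both pairs had medians of 1.74 with fenretinide and 2.26 without, and genes that fell in both had -1.22 and -1.75. The ratio of the 2 ratios had a median of 0.25 on the log2 scale. It was at least 2, with a counting interval that excludes 1, for 655 genes (4.77%) and at most 0.5 for 287 genes (2.09%). Of the 655, 158 fell in the combination library over the fenretinide library and 621 in the GSK-126 library over the vehicle library. Of the 287, 230 rose with fenretinide and 272 without it, and 68 were ZNF genes. Among the 13742 genes tested in both pairs, 328 were ZNF genes.

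**Figure D5:**
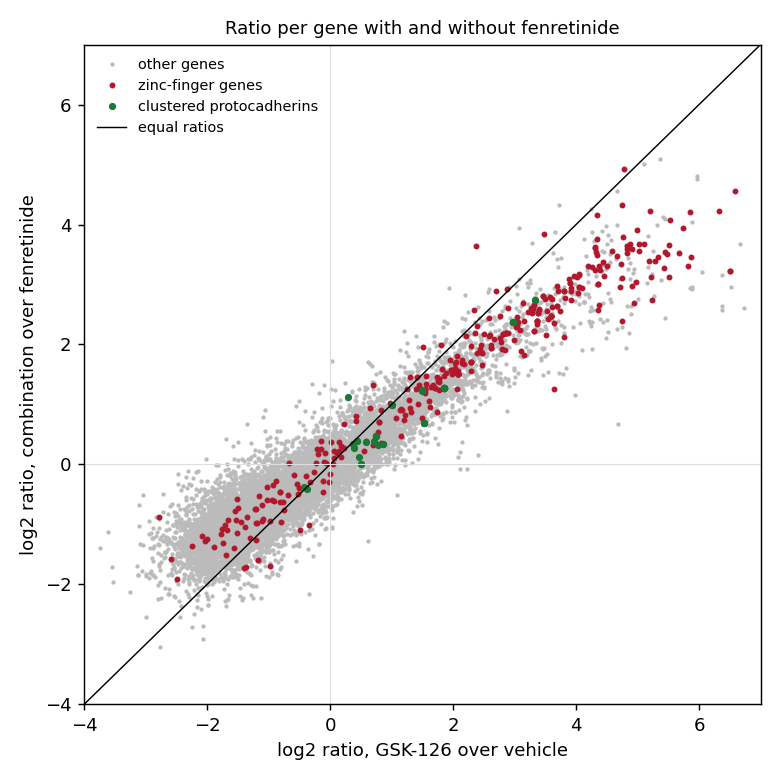
Log2 ratio per gene of combination over fenretinide (y axis) against GSK-126 over vehicle (x axis) for 13740 genes, with zinc-finger genes and clustered protocadherins marked and a line of equal ratios (2 genes are not drawn). Most points lie between that line and 0 on the y axis, so ratios had the same direction and were smaller with fenretinide.

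Among the genes with the highest ratio of ratios, HTRA3, a secreted protease gene, had 55 combination and 83 fenretinide fragments (0.793, 0.554 to 1.13), against 32 GSK-126 and 189 vehicle fragments (0.180). The fenretinide library was already low there, and the combination library did not go lower by the rule. SRCIN1, a neuronal signalling adaptor gene, had 213 and 409 fragments (0.623), against 151 and 789 (0.203). BAHD1, a heterochromatin protein gene, was at 0.632 with fenretinide and 0.169 without it. IGF2, a fetal growth factor gene, and IGF2-AS share an interval with promoter-class peaks on chromosome 11 from 2131497 to 2151005, which had 136 combination and 328 fenretinide fragments (0.496, 0.403 to 0.608) and 123 GSK-126 and 766 vehicle fragments (0.170). Per unit of library the combination and GSK-126 libraries were closer to each other at IGF2 than the fenretinide and vehicle libraries were. Over the whole IGF2 span the ratio with fenretinide was 0.774 and the fall was not called. COL2A1, a cartilage collagen gene, was at 0.636 with fenretinide and 0.234 without it, and of the genes fixed for naming, HOXD11 and RARB had ratios of ratios of 2.85 (1.42 to 5.72) and 2.19 (1.09 to 4.40), on 29 combination, 36 fenretinide, 21 GSK-126 and 51 vehicle fragments at RARB.

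Among the lowest ratios of ratios, ZNF321P with ZNF816 had 171 combination and 22 fenretinide fragments (9.30, 5.95 to 15.2), against 257 GSK-126 and 3 vehicle fragments (90.8, 30.7 to 443). TP53TG5 had 117 and 18 (7.78), against 173 and 2 (91.7, 25.01 to 763). ZNF254 was at 9.63 with fenretinide and 43.04 without it, and ZNF716 at 6.28 and 20.7. DUX4L, a repeat-array gene with many near-identical copies, was at 5.45 and 43.5, and its counts are uncertain. At these genes the libraries with the inhibitor were high in both pairs, and the fenretinide library held more fragments than the vehicle library, where counts of 2 to 56 leave wide intervals.

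Over all genes tested in both pairs, 2577 of 13742 fell with fenretinide and 5639 without it. A ratio of ratios of at least 2 was called for 655 of the 13742 genes (4.77%). The lists are to be read against these values. Of 9 HOX genes, 2 fell with fenretinide (median -0.79) against 9 in the GSK-126 library over the vehicle library (median -1.84), and 4 of the 9 had a ratio of ratios of at least 2. For WNT, BMP and FGF genes 18 of 54 fell with fenretinide and 36 without it, and 8 had a ratio of ratios of at least 2. For developmental transcription factors the falls were 9 of 96 with fenretinide and 40 without it, and 10 had such a ratio. ZNF genes had medians of 1.71 with and 2.16 without fenretinide, and protocadherins 1.17 and 1.496, with no protocadherin passing the ratio of ratios rule in either direction.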

How the data were processed

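H3K27me3 chromatin immunoprecipitation sequencing of T24 cells was analysed in 4 libraries, 1 for each condition. Per the labels' protocols, chromatin was crosslinked for 10 min in formaldehyde at 1%. The authors called peaks library by library. The submitters' processing notes name MACS2 2.1.0. Each deposited peak has a score, with a lowest value of 10, whose scale no source gives. Consensus intervals each run from the first start to the last end of their peaks, and the authors counted read pairs in them with featureCounts 2.0.1, unstranded, with a minimum overlap of 0.2 of the fragment and with a fragment counted in every interval it met, per the file headers, so these are raw counts. Peaks carry HOMER annotation, per the file headers, and the build is GRCh38 (hg38), per the submitters' processing notes. What aligned the reads, filtered duplicates or served as peak-calling control is not given in the sources used here.

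Counts were divided by the total of fragments in intervals. Ratios came with 95% Clopper-Pearson intervals from the split of fragments between the pair. These cover counting error only, and fragments from PCR are not independent molecules. Log2 ratios had a pseudocount of 0.5. A count of 0 allows a share of up to 3 fragments of the library. A gene got the intervals under combination or fenretinide peaks annotated to it with a centre within 10 kb of its TSS. Of 17759 such genes, 14575 matched RefSeq. The difference between 2 pairs was a ratio of ratios with a normal interval on the log scale. No test between conditions was run with 1 library each, so no p-value is given.

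Genes were named by rule. It took the 10 rises and 10 falls with the counting bound farthest past 1, then 2 of each per list, then 12 genes whatever their values, and then the 5 highest and 5 lowest ratios of ratios, each with at least 100 fragments except for the 12. Members and lists were chosen with earlier results of these data known. DESeq2 1.42.0 and edgeR 4.0.16 (R 4.3.3) gave scaling factors only, and the rest used scipy 1.17.1, numpy 2.4.6, pandas 2.3.3 and matplotlib 3.10.9 under Python 3.11.15. The ratio and call steps were checked on simulated data. Alternatives were the scaling, the fragment minimum, the fold, the distance limit, the peak lists, vehicle peaks only, gene spans, the peak overlap and the peak score. Promoters come from RefSeq (GRCh38.p14), and 64 of 85 named genes matched one. No genome was used.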

Additional observations from a re-analysis of the deposited data

Results flagged for a closer look

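GATA3, a luminal transcription factor gene, lay on opposite sides of 1 in the 2 pairs. The ratio was 1.02 (0.729 to 1.42) for combination over fenretinide, on 69 and 81 fragments, and 0.761 (0.546 to 1.05) for GSK-126 over vehicle, on 66 and 92 fragments. Both counting intervals include 1, and so does that of the ratio of ratios, 1.34 (0.855 to 2.098). With 1 library per condition the difference was not tested against replicate spread.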

How the results depend on the processing

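Each condition had 1 library, so no test between replicates was run and no replicate could be left out. The 2 pairs that differ by GSK-126 were compared by their ratios only. The values here follow the same order as the report: intervals higher 30524, intervals lower 19862, genes higher 1320, genes lower 2662. Background scaling gave 11887 higher and 60327 lower intervals and 671 higher and 8388 lower genes. A minimum of 50 fragments gave 18018 and 10268 intervals, by having fewer intervals to test. Intervals with a vehicle peak gave 8706 higher, and those with a peak of both libraries 10877 higher and 8380 lower. A ratio of 1.5 gave 32347 lower intervals and 6005 lower genes. Peaks within 2 kb gave 438 higher and 1082 lower genes, and vehicle-peak intervals 672 higher. No distance limit gave 2705 higher and 2187 lower, and gene spans 5433 higher and 4545 lower. In these last cases more genes were higher than lower, the opposite of the main order. The median gene log2 ratio of -0.49 became -0.53 with TMM, -1.17 with background scaling, -0.29 without a distance limit, -0.54 with vehicle-peak intervals, -0.30 over gene spans and -0.46 with a pseudocount of 5. Genes with a ratio of ratios of at least 2 numbered 413 at 100 fragments, 2482 at a ratio of 1.5 and 352 within 2 kb, against 655, and those at most 0.5 numbered 704 at 1.5 and 132 within 2 kb, against 287. Combination peaks that overlap a fenretinide peak were 48.2% where the overlap had to cover 0.5 of the peak and 72.3% at a score of 20, against 66.1%, and fenretinide peaks 53.8% and 47.2%, against 72.6%. RAET1G turned to 0.918 with all 4 peak lists and over its gene span, RDH12 to 0.943 over its span, and TMEM38B to 1.08 without a distance limit and 2.35 over its span. The cause of the gene changes was not tested. Of 728 values of named genes under alternatives, 689 kept their side of the rule, 25 lost the call, 9 gained one and 5 turned. No list median turned. Direction was not compared for genes without a call, so the 689 include values that crossed 1. Without a distance limit CYP26A1 went from 0.778 to 1.02 and RARB from 0.964 to 1.19. GATA3, at 1.02, was below 1 with TMM, with background scaling and without a distance limit. The 689 also include values under other fragment minimums, which leave a gene's ratio unchanged. Depth limits genes with few fragments: at STRA6, on 17 and 43 fragments, the counting interval of 0.473 ran from 0.253 to 0.847.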

Other observations

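The median log2 ratio did not run one way with interval length. Intervals under 1 kb had -0.45, with 403 higher and 1195 lower of 6806, those of 1 to 3 kb had -0.07, those of 3 to 10 kb had 0.12, with 15783 higher and 7397 lower of 66202, and those of 100 kb or more had -0.35, with 48 higher and 18 lower of 653. A second interval of the unplaced contig KI270438v1, from 103878 to 106210, held 18026 combination and 2210 fenretinide fragments, a ratio of 9.76 (9.34 to 10.2), and the contig KI270442v1 had one of 2.62 with 6069 and 2774 fragments.

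SYN1, a synaptic vesicle gene picked after its values were seen, had 37 combination and 17 fenretinide fragments, a ratio of 2.61 (1.43 to 4.93). The GSK-126 and vehicle libraries had 15 and 29 fragments there, together under the minimum of 50, so SYN1 was not tested in that pair and the pairs are not compared at it.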
